A study of Nannochloropsis oceanica with 8 samples.

Results

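Kbu and H3K9me2 were compared at the deposited ChIP-seq peaks of *Nannochloropsis oceanica* IMET1, a single-celled marine alga, at high CO2. The comparison takes all 4 high-CO2 ChIP-seq libraries of the 8 in the series, 2 made with an antibody labelled Kbu and 2 with an antibody against H3K9me2, by their labels and not by their values. They are set side by side over the 6185 peaks on 30 chromosomes that the deposited tables hold. Cells of these libraries were aerated with 5% CO2 and taken at 24 h. The low-CO2 libraries, 2 per mark, are from cells switched to 0.04% CO2 and taken at 24 h. They are used here to read the same peaks in other libraries and to compare the difference between the marks across CO2 levels. All cultures shared the strain, modified f/2 medium, continuous light and an initial aeration with 5% CO2. There were 3 cultures per CO2 level, and the labels do not say which library came from which culture. The spread behind each p-value is that between libraries and may be technical. Each H3K9me2 library has its own antibody lot in the labels.

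H3K9me2 is dimethylation of lysine 9 of histone H3. It is laid down by SET-domain methyltransferases, is bound by chromodomain proteins and marks repeats and silent chromatin in many animals, plants and fungi. Kbu usually stands for lysine butyrylation, an acylation that draws on butyryl-CoA and has been found at active genes in mice and rice. The label names no histone or residue for it. The question addressed is whether the marks occupy the same or different peaks of the deposited set in cells supplied with CO2.

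A level is the deposited pileup of a peak divided by the lowest control background (lambda) of its library, so a level of 1 is that background. A mark is counted as carried where both of its libraries have a level of at least 2. A level measures enrichment with 1 antibody, and equal levels of Kbu and H3K9me2 need not mean equal amounts of modified histone. Each pileup is a whole number of reads times 1 step per library (within 0.02 of a read in 100% of peaks). The median peak held 816 and 592 reads at its pileup in the Kbu libraries, against 53 and 29 reads in the H3K9me2 libraries. Its counting error was 3.5% and 4.11% for Kbu and 13.7% and 18.6% for H3K9me2. Total library depth is unknown, and the error covers counting only. Log2 levels of the Kbu replicates correlated at 0.984 across the 6185 peaks and those of the H3K9me2 replicates at 0.299. The replicates of a mark share peaks and base composition, so these values are descriptions. The controls of the marks were alike at high CO2, with log2 values correlating at 0.963 to 0.989 across peaks.

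Kbu stood above H3K9me2 at nearly all peaks of the deposited set. How these peaks were called is not known, and places outside them were not seen. The shares of peaks therefore describe this set and not the genome. The median level over peaks was 3.71 in both Kbu libraries, against 1.35 and 1.44 in the H3K9me2 libraries. As means this is 3.71 ± 0.0029 for Kbu and 1.39 ± 0.069 for H3K9me2 (SD, n = 2 each), a ratio of 2.66. With 2 libraries against 2, an exact permutation test cannot go below p = 0.33, and it gave that value (two-sided). The middle 80% of peaks had mean Kbu levels between 2.28 (10th percentile) and 5.07 (90th percentile). For H3K9me2 the same percentiles were 1.23 and 1.58, so its levels varied little from peak to peak. Divided by the local control, the median peak had 1.04 and 1.17 in the H3K9me2 libraries, and 2.77 and 2.91 in the Kbu libraries. The typical H3K9me2 level was thus near its local control. Its counting error at the median peak was 13.7% and 18.6%, and how much of the narrow range is noise was not tested.

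Peak by peak, Kbu was higher at 5960 peaks (96.4% of all tested) and H3K9me2 at 62 (1.00%), while 163 did not pass (limma on log2(level + 0.1), Benjamini-Hochberg adjusted p under 0.05, two-sided, n = 2 per mark). The median log2 difference, Kbu minus H3K9me2, was 1.35, with quartiles of 1.06 and 1.59 and extremes of -2.10 and 2.96. Both Kbu libraries lay above both H3K9me2 libraries at 6020 peaks (97.3%). Both H3K9me2 libraries lay above both Kbu libraries at 80 (1.29%), and the libraries overlapped at 85. With each library centred on its own median, a comparison set against the typical peak, the split was 1331 higher for Kbu and 1525 higher for H3K9me2. The count for H3K9me2 was 33 without Kbu replicate 1 and 39 without Kbu replicate 2.

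By what they carried, 5728 peaks (92.6%) had Kbu only, 5 had both marks, 5 had H3K9me2 only and 447 (7.23%) had neither. Of the 80 peaks with H3K9me2 above Kbu, 6 carried H3K9me2 and 74 carried neither mark. The classes are made from the levels, so their counts and levels describe the data and are not tested.

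**Figure D1:**
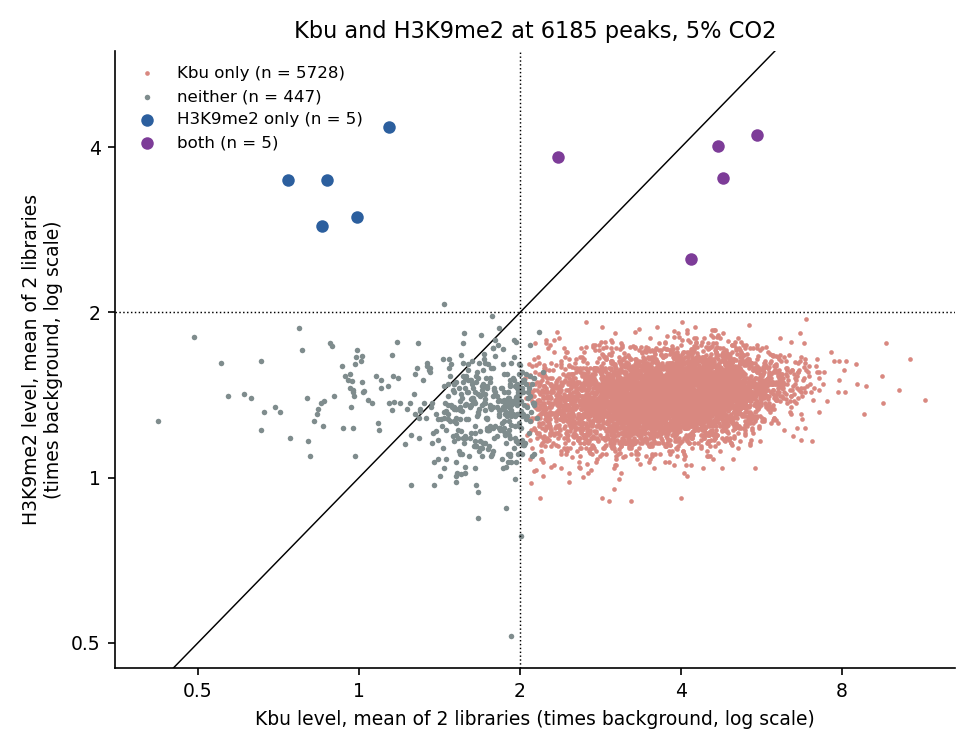
Mean Kbu level (x axis) against mean H3K9me2 level (y axis) at high CO2, both in times background on log axes, 1 point per peak, coloured by class. Dotted lines mark a level of 2 and the solid line equal levels. The 5728 peaks with Kbu only spread along the Kbu axis in a narrow band of H3K9me2, and 10 peaks stand above that band.

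Peaks that carried Kbu only had a median level of 3.81 ± 0.0019 for Kbu and 1.39 ± 0.069 for H3K9me2 (SD over 2 library medians each). The median H3K9me2 level was the same as over all peaks, most of which are these same peaks. Their median width was 1050 bp (quartiles 808 and 1178 bp), and they lay on all 30 chromosomes. Kbu reached a level of 5 in both libraries at 598 peaks (9.67%). These had a median width of 1187 bp and a median H3K9me2 level of 1.46.

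The strongest Kbu of all was at peak596 (chromosome 11, 103498 to 104680, 1182 bp). Its Kbu levels were 11.4 and 11.5, against H3K9me2 levels of 1.52 and 1.24, a log2 difference of 2.96 (SE 0.11). It was also named for this difference, so no test is given. Genome coordinates are those of the deposited tables. No source used here names their build, and no nuclear gene annotation was used. At peak5642 (chromosome 7, 1188247 to 1189763) the Kbu levels were 10.6 and 10.9 and the H3K9me2 levels 1.85 and 1.44. At peak4057 (chromosome 29, 579848 to 580964), the last peak of its chromosome, they were 10.3 and 10.1 for Kbu, against 1.29 and 1.59 for H3K9me2. At these 3 peaks no Kbu level was under 10.1 and no H3K9me2 level over 1.85.

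The other largest differences were at peak3283 (chromosome 23, 393274 to 394838, log2 difference 2.72), peak2820 (chromosome 20, 367724 to 369009, 2.67) and peak5095 (chromosome 5, 1375124 to 1377073, 2.56). Their mean Kbu levels were 9.53 ± 0.2, 8.78 ± 0.23 and 9.5 ± 0.6, against mean H3K9me2 levels of 1.37 ± 0.18, 1.31 ± 0.27 and 1.53 ± 0.23 (SD, n = 2 each). All 6 peaks thus had a high Kbu level, with H3K9me2 means of 1.31 to 1.65. Of these means only that of peak5642, 1.65, lay above the 90th percentile of H3K9me2, 1.58. All 6 were 1116 to 1949 bp wide. The widest peak with Kbu only was peak2070 (chromosome 18, 107772 to 112063, 4291 bp). It had Kbu levels of 4.16 and 3.89 and H3K9me2 levels of 1.55 and 2.29.

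H3K9me2 was carried at 10 peaks, on 6 chromosomes. Their mean H3K9me2 levels ran from 2.50 to 4.36, and the highest mean among all other peaks was 2.07, at peak5907 (chromosome 8, 1194506 to 1195127). The pileups behind these levels were worth 51 to 177 reads. Control background at the 10 peaks was between 1 and 1.72 times its lowest value in the H3K9me2 libraries, against a median of 1.26 over all peaks. Divided by this local control, H3K9me2 was still at 2 or more in both libraries at 9 of the 10, the exception being peak5543, where it was 1.28 and 1.64.

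The 5 peaks with H3K9me2 only had Kbu at or near background. At peak748 (chromosome 11, 804022 to 804719) the Kbu levels were 0.768 and 0.703, against H3K9me2 levels of 3.30 and 3.68. Its log2 difference of -2.10 (SE 0.11) was the most negative of all peaks. At peak5611 (chromosome 7, 1037585 to 1038659), the widest of the 5 with 1074 bp, the Kbu levels were 0.914 and 0.828, against H3K9me2 levels of 3.50 and 3.48. No library of one mark overlapped those of the other at either peak, which was part of the rule that named them.

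Peak4257 (chromosome 3, 1030681 to 1031720) had the highest mean H3K9me2 of all peaks, at 4.49 and 4.23, beside Kbu levels of 1.02 and 1.26 (log2 difference -1.85, SE 0.12). The remaining members were peak1583 (chromosome 15, 498310 to 498979), with Kbu at 0.887 and 0.816 and H3K9me2 at 3.22 and 2.54, and peak1602 (chromosome 15, 586050 to 586585), with Kbu at 1.04 and 0.941 and H3K9me2 at 3.10 and 2.89. Their log2 differences were -1.64 and -1.50. The class fixes the direction of these 5 differences, so no test is given for them. The peaks were narrow to average in width, 535 to 1074 bp with a median of 697 bp, against 1031 bp over all peaks. The H3K9me2 control at peak748, peak1583 and peak1602 was at its lowest value, so their H3K9me2 levels over a local control are the same.

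Both marks were carried at 5 peaks, which were wide, with 1127 to 1941 bp and a median of 1650 bp. At peak6010 (chromosome 9, 418238 to 420179), the widest, the Kbu levels were 5.20 and 5.92 and the H3K9me2 levels 4.29 and 4.13. Peak4256 (chromosome 3, 1023007 to 1024806) had 4.87 and 4.73 for Kbu, against 3.40 and 3.63 for H3K9me2. At peak2254 (chromosome 19, 241503 to 243076) the values were 4.58 and 4.81 for Kbu and 3.81 and 4.23 for H3K9me2. In these 3 peaks each mark stood above its median over all peaks in both libraries.

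Kbu was higher than H3K9me2 at peak6010 by a log2 difference of 0.39 (adjusted p = 0.00845) and at peak4256 by 0.44 (adjusted p = 0.00252), but peak2254 did not pass (0.22, adjusted p = 0.0639, limma). Centred on library medians, the direction at all 3 is turned, with -0.96 at peak6010, -0.91 at peak4256 and -1.13 at peak2254. Neither peak6010 nor peak4256 passed without Kbu replicate 1 or without Kbu replicate 2, and peak6010 did not pass over the local control. Peak5543 (chromosome 7, 766916 to 768566) had Kbu at 4.21 and 4.16 and the lowest H3K9me2 of the 10, at 2.26 and 2.74 (log2 difference 0.73, and -0.62 relative to the bulk). At peak749 (chromosome 11, 805408 to 806535) H3K9me2 was the higher mark, with Kbu at 2.36 and 2.34 and H3K9me2 at 4.14 and 3.53 (log2 difference -0.68, SE 0.10, limma adjusted p = 0.000513). Over the local control its Kbu was 1.65 and 1.68, below 2, while Kbu at the other 4 was 2.33 to 3.68. All these peaks were chosen by their levels in the same libraries, so the adjusted p-values given here only describe them.

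**Figure D2:**
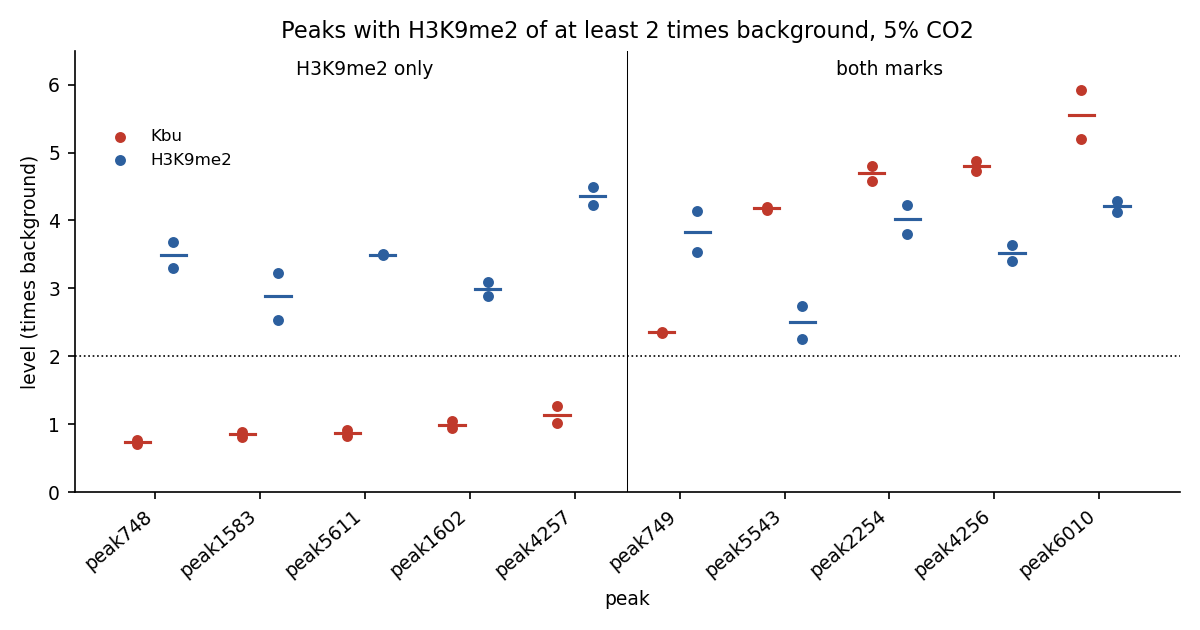
Levels of Kbu (left, red) and H3K9me2 (right, blue) at the 10 peaks that carry H3K9me2 at high CO2, in times background. Points are single libraries, short lines their mean, and the dotted line a level of 2. Kbu lies at 1.26 or below in the 5 peaks on the left and above 2 in the 5 on the right, while H3K9me2 is above 2 throughout.

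Of the 10 peaks, 4 had another one as the next peak along the chromosome. Peak748 (H3K9me2 only) and peak749 (both marks) lie 689 bp apart on chromosome 11. Peak4256 (both marks) is followed on chromosome 3 by peak4257 (H3K9me2 only). In each pair the wider peak carried both marks and the narrower had Kbu near background. The peak after peak4257, peak4258 (chromosome 3, 1034586 to 1035576), was again of the common kind, with Kbu at 4.32 and 4.40 and H3K9me2 at 1.35 and 1.34. The peak after peak6010, peak6011 (chromosome 9, 426290 to 426771), carried neither mark and had the lowest Kbu of all peaks, 0.377 and 0.464, with H3K9me2 at 1.29 and 1.24.

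The number of peaks counted as carrying H3K9me2 rests on H3K9me2 replicate 1. Outside the 10, a level of 2 was reached at 1 peak in replicate 1 and at 63 in replicate 2, the library with the fewer reads. Without replicate 1, 57 peaks would carry both marks and 16 H3K9me2 only. Without replicate 2 the counts are 5 and 6.

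The 80 peaks with H3K9me2 above Kbu in every pair of libraries had little Kbu rather than much H3K9me2. Their median Kbu level was 0.987 ± 0.046, against an H3K9me2 level of 1.48 ± 0.12 (SD over 2 library medians each). Over all peaks the values are 3.71 for Kbu and 1.39 for H3K9me2. Kbu was below background in both libraries at 34 of the 80. The median log2 difference was -0.54, and 62 passed as higher in H3K9me2, against 1.00% of all peaks. The 80 were chosen by this order of the same libraries, so both values only describe them. Their control at high CO2 was like that of other peaks. Its medians were 1.31 in the Kbu libraries and 1.27 in the H3K9me2 libraries, against 1.30 and 1.26 over all peaks.

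The sixth named peak of this direction carries neither mark. Peak1761 (chromosome 16, 434858 to 435133) is the narrowest of the table with 275 bp. Its Kbu levels were 0.473 and 0.508, against H3K9me2 levels of 1.32 and 2.29, a log2 difference of -1.64 (SE 0.24). It was named for this difference and for H3K9me2 libraries above Kbu, so no test is given. Its H3K9me2 libraries lay far apart. Narrow peaks were common in this group, with a median width of 619 bp. They lay close to other peaks, with a median gap of 625 bp to the nearest one, against 2045 bp over all peaks. A gap under 1000 bp was found for 48 of the 80 (60%) and for 789 of all peaks (12.8%). The nearest peak carried Kbu in 62 of the 80 (77.5%), a smaller share than the 92.1% over all peaks. Its median Kbu level was 3.28, against 3.70 for the nearest peak over all peaks, while the 80 themselves had 0.976.

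The 80 peaks lay on 28 of the 30 chromosomes, and the exceptions were chromosomes 23 and 27. Chromosome 11 held the most, 7 of its 236 peaks (2.97%). All 7 passed as higher in H3K9me2, against 1.00% of all peaks, but the choice of the 80 fixed this direction. Chromosome 28 (2.75%), chromosome 30 (2.67%) and chromosome 18 (2.53%) followed with 3, 2 and 4 peaks. Such small counts do not order the chromosomes.

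Neither mark was carried at 447 peaks. Here the median level was 1.68 ± 0.026 for Kbu and 1.34 ± 0.07 for H3K9me2 (SD over 2 library medians each), so Kbu was well under its level over all peaks and H3K9me2 was near its own. Among them 288 had Kbu above H3K9me2 in every pair of libraries, 74 had H3K9me2 above Kbu and 85 overlapped. Kbu passed as higher at 232 of the 447 and H3K9me2 at 56, against 96.4% and 1.00% of all peaks. The class is made by low levels of both marks, so nothing is read from these shares.

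That threshold cuts through a continuous range of Kbu. Just inside it were peak654 (chromosome 11, 423287 to 423729), with Kbu at 2.12 and 2.00, and peak1106 (chromosome 13, 232238 to 232741), with 2.13 and 2.00. Just outside were peak814 (chromosome 11, 1152372 to 1153910), with 2.00 and 2.11, and peak3567 (chromosome 25, 446462 to 446873), with 2.25 and 2.00, in each case with the lower library under 2. The highest mean Kbu without a mark was 2.21 ± 0.34 (SD, n = 2), at peak87 (chromosome 1, 464675 to 465335), where the libraries gave 1.96 and 2.45. At a level of 1.5 in place of 2, the peaks with neither mark number 138, and at a level of 3 they number 1686.

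Peaks with neither mark were narrow, with a median of 547 bp (quartiles 420 and 771 bp), against 1050 bp for peaks with Kbu only. Of the 271 peaks under 500 bp, 195 (72%) carried neither mark. The share was 11% of 1217 peaks from 500 to 749 bp, 5.1% of 1352 from 750 to 999 bp and 1.27% of 2438 from 1000 to 1249 bp. Kbu was higher in wider peaks, with a median level of 1.79 ± 0.024 under 500 bp, 3.03 ± 0.0048 and 3.54 ± 0.0097 in the next classes, 4.05 ± 0.011 at 1000 to 1249 bp and 4.52 ± 0.0092 at 1500 bp or more (SD over 2 library medians). H3K9me2 differed far less, with 1.31 ± 0.053 in the narrowest and 1.51 ± 0.12 in the widest peaks. The control ran the same way, with medians of 1.19 times its lowest value under 500 bp and 1.44 at 1500 bp or more in the Kbu libraries, and 1.14 and 1.40 in the H3K9me2 libraries. Its part in these steps was not tested.

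**Figure D3:**
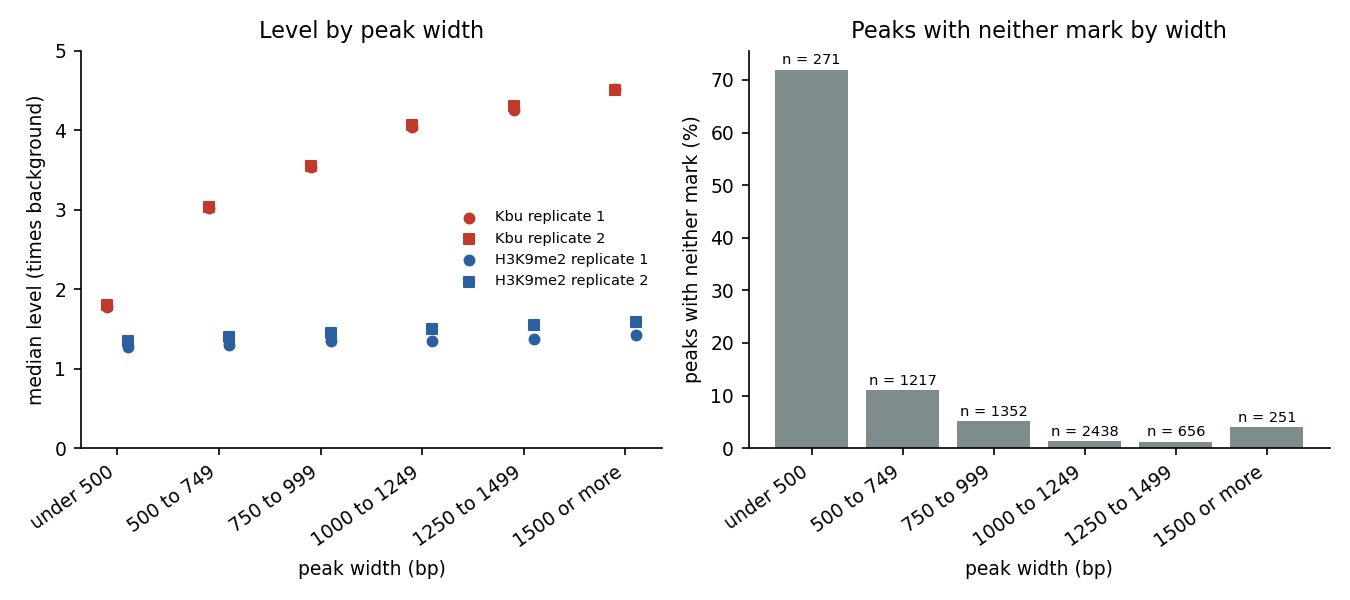
Left, median level of each high-CO2 library (y axis, times background) by peak width (x axis, bp), Kbu in red and H3K9me2 in blue. Right, share of peaks with neither mark (y axis, percent) in the same width classes, with the number of peaks above each bar. Kbu climbs from 1.79 to 4.52 with width, while H3K9me2 stays between 1.31 and 1.51, and 72% of peaks under 500 bp carry neither mark.

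The widest peaks broke this order in part. Among the 251 peaks of 1500 bp or more, 10 (3.98%) carried neither mark and 4 of the 5 peaks with both marks were found. The widest peak with neither mark was peak3461 (chromosome 24, 592642 to 595569, 2927 bp). Its Kbu levels were 1.03 and 0.941, against H3K9me2 levels of 1.52 and 1.69 (log2 difference -0.65, SE 0.11, limma adjusted p = 0.00107). The peak comes from a class made by low levels in these same libraries, so this adjusted p-value only describes it.

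Chromosome 18 had the largest share of peaks with neither mark, 27 of 158 (17.1%). On the other chromosomes the share ran from 2.21% on chromosome 22 (3 of 136 peaks) to 12% on chromosome 30 (9 of 75). Chromosome 23 had 11.4% and chromosome 5 had 3.7%. The median Kbu level of all peaks differed little between chromosomes, from 3.59 on chromosome 17 to 3.87 on chromosome 15, and that of H3K9me2 ran from 1.36 to 1.43. The shares rest on few peaks and the medians on all peaks of a chromosome, so the spread of one is not ranked against that of the other.

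**Figure D4:**
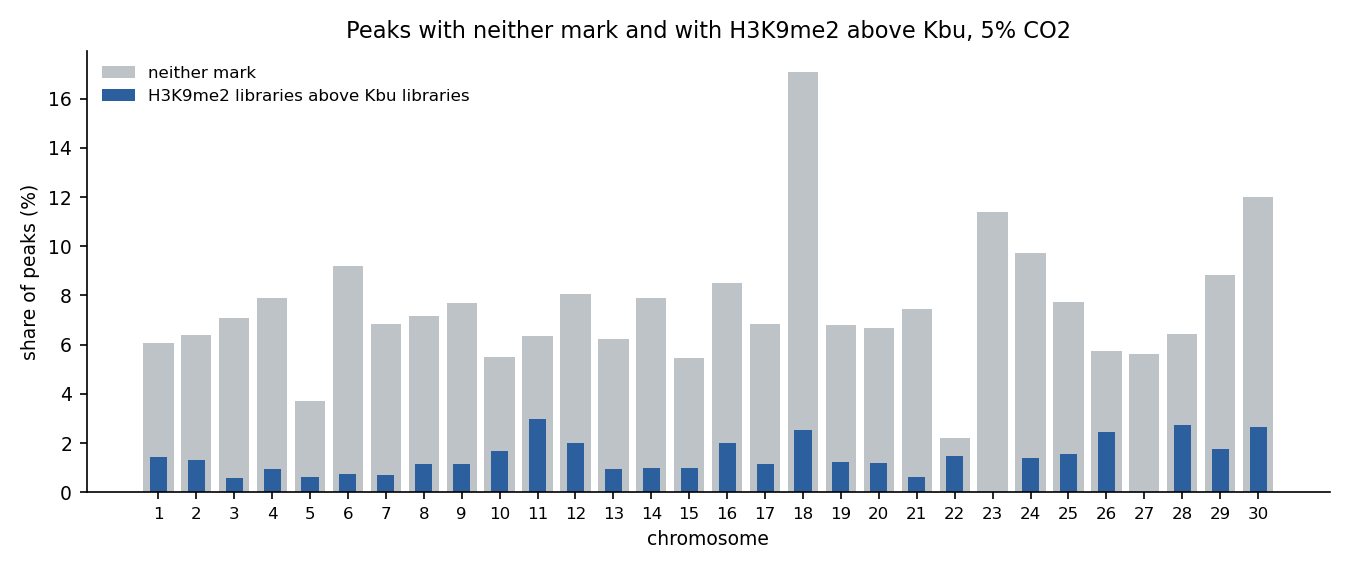
Share of peaks (y axis, percent) on each of the 30 chromosomes (x axis) that carry neither mark (grey) or have both H3K9me2 libraries above both Kbu libraries (blue, drawn over the grey bar), at high CO2. Chromosome 18 reaches 17.1% for neither mark, and chromosome 11 has the tallest blue bar at 2.97%.

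Most of the excess on chromosome 18 came from its first peaks. The first 12 peaks, peak2053 to peak2064 (3265 to 65320), all carried neither mark, the longest such run in the table. After peak2065 (68997 to 70478), with Kbu at 2.06 and 2.03, came another 4, peak2066 to peak2069 (76297 to 103271). Over these 16 peaks single-library levels were 1.24 to 1.94 for Kbu and 1.09 to 2.09 for H3K9me2. The marks overlapped at 10 of them, Kbu lay above H3K9me2 at 3 and H3K9me2 above Kbu at 3.

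By limma 14 of the 16 did not pass in either direction and 2 passed as higher in Kbu, against 96.4% of all peaks. The stretch ends at peak2070, where Kbu was about 4. Over the other 142 peaks of chromosome 18 the median Kbu level was 3.83 and 3.78 in the libraries, and 11 (7.75%) carried neither mark, against 6.97% on the other chromosomes. The 16 peaks were 348 to 1536 bp wide, with a median of 778 bp, so they were not all narrow. Control background was a little lower there, with a median of 1.16 times its lowest value in the Kbu libraries and 1.12 in the H3K9me2 libraries, against 1.36 and 1.31 at the other peaks of the chromosome. Elsewhere peaks with neither mark were mostly single: 349 of 389 runs held 1 peak, and the 2 runs on chromosome 18 were the only ones of 4 or more.

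**Figure D5:**
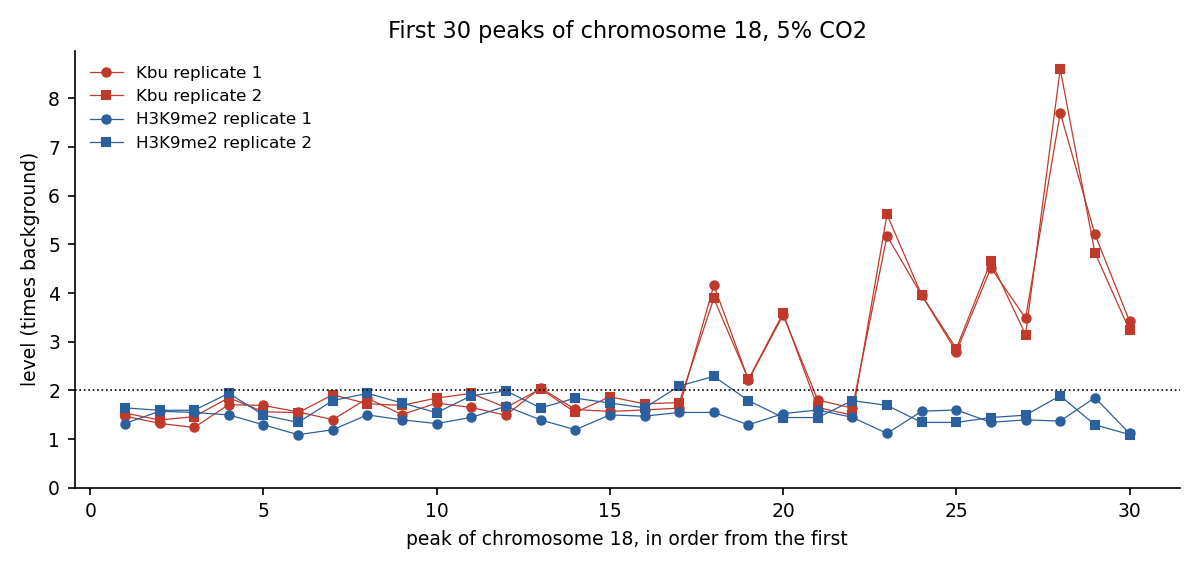
Level of each high-CO2 library (y axis, times background) at the first 30 peaks of chromosome 18 in order (x axis), Kbu in red and H3K9me2 in blue, with a dotted line at a level of 2. The marks intermingle over the first 17 peaks, with Kbu no higher than 2.06, and Kbu separates upward from peak 18 on, with a return to 1.80 or below at peaks 21 and 22.

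Across all peaks the levels of the marks went together weakly. The correlation of mean log2 levels was 0.170 over the 6185 peaks, and 0.206 without the 10 peaks that carry H3K9me2. Between single libraries of different marks it was 0.123 to 0.156. The points share controls and peak boundaries, and the H3K9me2 replicates themselves correlate at 0.243 without these 10 peaks, so this is a description.

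The low-CO2 libraries gave a second reading of the same peaks. The median level there was 2.59 ± 0.066 for Kbu and 1.57 ± 0.11 for H3K9me2 (SD, n = 2 each), so the marks stood nearer to each other than at high CO2. These low-CO2 levels depend on the background chosen. On the 5th percentile of lambda the medians were 1.53 ± 0.046 for Kbu and 0.932 ± 0.066 for H3K9me2, and over the local control 0.733 ± 0.021 and 0.453 ± 0.029, all under the level of 2 that counts as carried. The low-CO2 classes below hold only for the lowest lambda as background. Within low CO2, Kbu was higher at 4976 peaks (80.5%) and H3K9me2 at 160 (2.59%, limma, adjusted p under 0.05). Both Kbu libraries lay above both H3K9me2 libraries at 5328 peaks (86.1%), and the reverse held at 324 (5.24%). The difference between the marks was larger at high than at low CO2 at 4882 peaks (78.9%) and smaller at 27 (0.437%), by the interaction over all 8 libraries (limma, adjusted p under 0.05). Centred on library medians, these counts were 430 and 354. The comparison of CO2 levels rests on the lowest control value of each library, and the median control stood at 1.24 to 1.33 times that value in high-CO2 libraries and at 3.51 to 3.54 times in low-CO2 libraries.

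On that background the classes could be set side by side. Of the 5728 peaks with Kbu only at high CO2, 4328 (75.6%) had Kbu only at low CO2, 253 both marks and 1137 neither. The share with Kbu only is near the 70.6% of all peaks, most of which are these same peaks. Of the 447 with neither mark, 363 (81.2%) again carried neither, against 24.3% of all peaks. At these 447 the low-CO2 control of the Kbu libraries had a median of 1.70 times the lowest lambda, against 3.53 over all peaks. The part of this lower control in the 81.2% was not tested. All 16 peaks at the start of chromosome 18 carried neither mark at low CO2 too. The median low-CO2 control of the Kbu libraries was lower there, 1.92 times the lowest lambda, while the other peaks of the chromosome had 3.58, and its part in this was not tested. Of the 80 with H3K9me2 above Kbu, 62 had both H3K9me2 libraries above both Kbu libraries at low CO2, against 5.24% of all peaks. At low CO2, 54 of the 80 passed as higher in H3K9me2, against 2.59% of all peaks. The low-CO2 control at the 80 had a median of 1.19 in the libraries of each mark, against 3.53 and 3.52 over all peaks. Its part in these counts was not tested.

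All 10 peaks that carry H3K9me2 carried both marks at low CO2. Their mean levels there were 2.97 to 4.75 for Kbu and 2.38 to 7.85 for H3K9me2, and 9 passed as higher in H3K9me2 and 1, peak5543, as higher in Kbu. The low-CO2 control at the 10 had medians of 1.74 (Kbu libraries) and 1.73 (H3K9me2 libraries), against 3.53 and 3.52 over all peaks. It stood at its lowest value at the 5 peaks with H3K9me2 only at high CO2, peak748 and peak4257 among them. The part of this lower control in the low-CO2 levels was not tested. Peak748 had a Kbu level of 0.736 ± 0.046 in high-CO2 libraries, against 3.0 ± 0.26 in low-CO2 libraries. Its H3K9me2 level was 3.49 ± 0.27 in high-CO2 libraries, against 6.53 ± 1.4 in low-CO2 libraries (SD, n = 2 each). At peak4257 the high-CO2 and low-CO2 means were 1.14 ± 0.17 and 3.28 ± 0.15 for Kbu, and 4.36 ± 0.19 and 5.70 ± 0.89 for H3K9me2. Of the 5 peaks with H3K9me2 only at high CO2, none was in that class at low CO2. High-CO2 minus low-CO2, their Kbu minus H3K9me2 difference was -1.13 at peak5611, -1.08 at peak4257, -1.02 at peak748, -0.79 at peak1583 and -0.62 at peak1602 on the log2 scale. The peaks were chosen by their high-CO2 levels, which favours this sign, so the values are a description.

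At a few other peaks the order of the marks differed between CO2 levels. Peak3461, with H3K9me2 above Kbu at high CO2, had Kbu at 5.15 ± 0.049 and H3K9me2 at 2.49 ± 0.27 at low CO2 (SD, n = 2 each), and there Kbu was higher (log2 difference 1.02, limma adjusted p = 6.47e-06). In the opposite sense, Kbu was the higher mark at peak6010 and peak4256 at high CO2 and H3K9me2 at low CO2, with log2 differences there of -0.26 and -0.52 (limma adjusted p = 0.0494 and 0.000933). Their high-CO2 direction is the one described above as turned by centring and not passing without Kbu replicate 1 or 2, so this difference in order holds for the uncentred levels only. At peak749, by contrast, H3K9me2 was the higher mark at both CO2 levels, by -0.68 and -0.80, and the interaction did not pass (0.12, adjusted p = 0.5).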

How the data were processed

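ChIP-seq values of both marks came from 2 deposited tables that are identical in the columns used. The deposited values are signal, per the file headers: per library a pileup of ChIP reads and a lambda, which in MACS2 is the control background. The submitters' processing notes name MACS2, BWA, deepTools, Picard and Trim Galore. No source used here gives their versions or settings, the genome build, the control libraries or the way peaks were called or merged. That the lowest lambda is a library's genome background is therefore an assumption.

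From 16 columns per table, level was computed as pileup over the lowest lambda of the library. The 8 columns of normalised values per table and the authors' comparisons were not used. Width is end minus start. None of the values is a count of reads per peak, so no count test was run. Kbu was tested against H3K9me2 in R 4.3.3 with limma 3.58.1 on log2(level + 0.1) over all 6185 peaks. The fit had a mean trend in the empirical Bayes step, no filter, no block and 1 spread for both marks. Benjamini-Hochberg adjustment was used with a threshold of 0.05. In a simulated set, 200 of 6185 peaks were changed by 1 log2 unit from the H3K9me2 means. The fit recovered 100% of them, with 1 false call. In the real data most peaks differed between the marks, so the simulated set does not test the real calls. The fit within high CO2 used 4 libraries and the interaction all 8. Fold changes on this scale slightly understate those of low levels. The rest used Python 3.11.15 with pandas 2.3.3, NumPy 2.4.6, Matplotlib 3.10.9 and SciPy 1.17.1.

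Named peaks were the 6 with the largest difference in each direction (called, libraries not overlapping), all that carry H3K9me2, 2 on each side of the Kbu threshold, and the highest in Kbu and the widest of each class. Neighbouring peaks and the start of chromosome 18 were chosen after their values were seen. The comparison, thresholds and rules were chosen with earlier results of these data known. The gene table at hand covers 160 organelle genes and no nuclear ones, so peaks were assigned to no gene and no sequence is shown. Alternatives were other pseudocounts, filters, backgrounds, thresholds, centring, a replicate block and each library left out.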

Additional observations from a re-analysis of the deposited data

Results flagged for a closer look

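The difference between the marks, Kbu minus H3K9me2 on the log2 scale, was itself tested between high and low CO2 over all 8 libraries, and 20 of the 24 named peaks passed (limma interaction, adjusted p under 0.05). Over all peaks the difference was larger at high CO2 at 78.9% and lower at 0.437%, so passing is common and says nothing particular of the named peaks. All 24 named peaks were chosen by their high-CO2 values. Such a choice favours the sign seen at the peaks with the largest and smallest differences, at those with H3K9me2 only and at peak3461. All values of the difference below are descriptions. Among the strongest Kbu peaks it was larger at high than at low CO2 by 1.70 at peak596, 1.44 at peak2820, 1.41 at peak3283, 1.39 at peak5095, 1.12 at peak4057 and 0.92 at peak5642. Among peaks with both marks it was larger by 0.96 at peak4256, 0.95 at peak2254 and 0.65 at peak6010. It was also larger by 0.85 at peak654, 0.57 at peak2070 and 0.46 at peak1106.

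The difference was lower at high than at low CO2 at the remaining 8 peaks. It was -1.68 at peak3461, -1.30 at peak1761, -1.13 at peak5611, -1.08 at peak4257, -1.02 at peak748, -0.79 at peak1583, -0.68 at peak814 and -0.62 at peak1602. The median of this quantity over all peaks was 0.68, so the values of peak6010, peak2070 and peak1106 are at or below what the bulk of the peaks shows. The controls differ between CO2 levels, and their part in these differences was not tested.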

How the results depend on the processing

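Higher Kbu held at 5748 to 6040 peaks with any 1 high-CO2 library left out, and higher H3K9me2 at 33 to 83. Leaving out 1 library leaves 1 mark with a single library, which is then assumed to vary like the other mark. The marks did not vary alike: the replicate SD at high CO2 was 0.061 for Kbu and 0.177 for H3K9me2 (log2 scale). The fit with all libraries also takes 1 spread for both marks. Other pseudocounts, another background, a local control, no trend and an adjusted p under 0.01 moved neither count by over 1.5 times. Without the lowest 25% of peaks 2 peaks were higher in H3K9me2, since the filter removes most peaks poor in Kbu. Centring each library on its median gave 1331 and 1525 within high CO2, 851 and 1328 within low CO2, and 430 and 354 for the interaction. It turned the sign at peak6010 (-0.96), peak2254 (-1.13), peak4256 (-0.91), peak5543 (-0.62), peak654 (-0.61), peak1106 (-0.78), peak814 (-0.89), peak3567 (-0.75), peak2070 (-0.30) and peak87 (-0.88), where Kbu was higher by less than the median difference of 1.35. Besides these 10, 8 of the single-peak values under other settings no longer passed, 4 newly passed and 255 kept their call. The difference of the library medians was 1.73 to 2.37 in every setting.

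At low CO2, higher Kbu numbered 4004 to 5066 and higher H3K9me2 77 to 171 with 1 library left out. For the interaction the ranges were 4088 to 5112 and 20 to 35. A level of 1.5 gave 445 peaks with both marks, 24 with H3K9me2 only and 138 with neither. A level of 3 gave 3 with both and 1686 with neither, and a local control gave 3 and 973. With 1 library left out, peaks with both marks numbered 5 to 57, with H3K9me2 only 5 to 16, with Kbu only 5676 to 5775, with neither 400 to 446, and with H3K9me2 above Kbu 83 to 117.

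Replicates 1 and 2 share only a number. Deviations of same-numbered libraries of the marks correlated at 0.0586 at high CO2 and 0.0444 at low CO2. With the replicate block the counts were 5971 and 65 within high CO2, 5074 and 192 within low CO2, and 5025 and 31 for the interaction. Depth limits H3K9me2 most, with 53 and 29 reads at the median peak of its high-CO2 libraries.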

Other observations

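Peaks at the ends of the chromosomes often carried neither mark. Of the 60 outermost peaks, the first and last of each chromosome, 20 carried neither mark at high CO2, against 447 of all 6185 peaks (7.23%). H3K9me2 lay above Kbu at 8 of the 60, which is 10% of the 80 such peaks, while outermost peaks make up 0.97% of all peaks. No outermost peak carried H3K9me2. Chromosome lengths were not used here, so how far these peaks lie from the chromosome ends is unknown.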
